A study of Mus musculus with 21 samples.

Results

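Cd72 and 6 genes of the B-cell receptor complex or the B lineage (Cd22, Cd79a, Cd79b, Ms4a1, Blnk and Pax5) were described in inflammatory monocytes (IMs), out of 23420 gene symbols counted. All 7 were found by their symbols. Cd72 had been picked from an earlier look at these libraries because its change differed between the tumor models: IMs of LN2E1 primary tumors departed from bone marrow IMs of their strain by 7.53 more on the log2 scale (SE 1.24) than IMs of LN4K1 lung metastases did. Its values in those 4 groups are therefore a description with no test. The other 6 genes were named with it for their function. There was no cutoff, so no gene lay just inside or just outside one.

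RNA was measured in 21 libraries of sorted IMs in 5 groups. Tumor-infiltrating IMs (TIMs) came from primary lung tumors (n = 5) and lymph node metastases (n = 5) of FVB mice that received 500000 LN2E1 cells (KAL-LN2-E1 in the labels) in the lung, and from lung metastases (n = 5) of DBA2 mice that received 300000 LN4K1 cells by vein. Both lines are mouse squamous lung cancer lines selected by passage in mice. BM IMs came from the bone marrow of FVB mice (n = 3) and of DBA2 mice (n = 3) without tumors. Every library was enriched for monocytes with a kit and then gated for live CD45+ CD11b+ Ly6C hi cells without SiglecF or Ly6G. Strain, cell line, route and tissue changed together between the models, and tissue changed together with tumor between BM IMs and TIMs, so their effects cannot be told apart. The study's methods call the 5 and 3 libraries of a group technical replicates, so p-values measure only the spread between these libraries.

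CD72 is a membrane protein of B cells that lowers signalling from the B-cell receptor. It recruits the phosphatase SHP-1 (Ptpn6) to its cytoplasmic tail, and the semaphorin CD100 (Sema4d) is a ligand for it. In the receptor itself, Cd79a and Cd79b encode the signalling pair that sits beside the membrane antibody. Lyn and Syk carry the signal to the adaptor Blnk, which assembles Btk and phospholipase C gamma 2. Cd22 encodes a second inhibitory lectin that also recruits SHP-1, Ms4a1 encodes CD20, and Pax5 is the factor that commits cells to the B lineage. Monocytes express Lyn, Syk, Btk and Ptpn6, but the B-cell receptor is a product of B cells.

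All 7 genes are protein coding. In the GENCODE vM21 annotation of GRCm38, the build also called mm10, Cd72 lies at chr4:43446462-43454628 and Pax5 on the same chromosome at chr4:44524757-44710487. Cd22 lies at chr7:30865402-30880342, Cd79a at chr7:24897381-24902197, Cd79b at chr11:106311341-106314762, Ms4a1 at chr19:11249675-11266241 and Blnk at chr19:40928927-40994535. Cd79a is on the plus strand and the other 6 are on the minus strand. Libraries carried no strand, so reads on exons that overlap a gene of the opposite strand could not be separated. Such overlaps concern Cd72 with the kinase gene Tesk1, Cd22 with Gm29439, and Pax5 with 5730488B01Rik and Gm12462.

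Promoters are shown because Cd72 and Blnk were both high in LN2E1 TIMs while no change of Cd79a from BM IMs to TIMs passed in edgeR or DESeq2. Each sequence is the 250 bases before the RefSeq transcription start on GRCm38.p6, read on the gene's strand, with motif matches in capitals. The windows are chr4:43454627-43454876 for Cd72, chr19:40994222-40994471 for Blnk and chr7:24897247-24897496 for Cd79a. By the GENCODE coordinates above, the Blnk window lies inside the Blnk gene, and so does the Cd22 window, searched below, in Cd22. Part of the Cd79a window, with its AGGAAG match, lies inside Cd79a. Those stretches are therefore annotated gene sequence in GENCODE, although they precede the RefSeq start.
Cd72: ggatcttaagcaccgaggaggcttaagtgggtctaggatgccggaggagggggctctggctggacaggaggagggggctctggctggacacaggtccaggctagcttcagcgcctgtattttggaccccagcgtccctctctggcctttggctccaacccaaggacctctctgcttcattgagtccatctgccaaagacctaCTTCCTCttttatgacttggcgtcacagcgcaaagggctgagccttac
Blnk: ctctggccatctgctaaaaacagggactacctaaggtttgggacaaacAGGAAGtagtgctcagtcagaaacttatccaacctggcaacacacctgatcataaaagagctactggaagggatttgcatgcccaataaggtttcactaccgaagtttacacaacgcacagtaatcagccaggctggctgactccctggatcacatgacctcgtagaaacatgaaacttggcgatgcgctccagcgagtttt
Cd79a: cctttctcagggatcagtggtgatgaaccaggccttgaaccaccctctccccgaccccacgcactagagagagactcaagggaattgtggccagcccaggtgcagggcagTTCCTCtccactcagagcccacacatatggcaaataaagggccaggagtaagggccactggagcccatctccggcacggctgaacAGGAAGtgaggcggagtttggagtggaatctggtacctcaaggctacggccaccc
The motifs were searched on both strands. GAGGAA and AGGAAG are letters that PU.1 (Spi1, listed here by its older name Sfpi1) can bind, and CCCNNGGG is the core of the site of the early B-cell factor Ebf1. In Cd72 the reverse complements of GAGGAA and AGGAAG overlapped in 1 run that began 48 and ended 42 bases before the start. Cd79a held the reverse complement of GAGGAA from 140 to 135 bases and AGGAAG from 55 to 50 bases before the start, and Blnk held AGGAAG from 202 to 197 bases before it. Of the 5 members in the promoter table, only Cd22 held CCCNNGGG, from 48 to 41 bases before the start, and Pax5 held none of the motifs. Among all 32851 windows of 250 bases, 23.3% held GAGGAA, 29.5% held AGGAAG and 11.8% held CCCNNGGG. These matches describe letters and were not tested as binding sites.

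Total counts lay between 80772922 and 101043568 per library. At that depth 3 counts, the limit that a count of 0 allows, correspond to 0.0297 to 0.0371 CPM (counts scaled to a common library total). That range uses total counts alone, whereas all other CPM values also carry TMM factors, which shift it somewhat in single libraries. This limit covers counting error only. Lymph node replicate 1 had the fewest genes with at least 10 counts, 11047 against 12433 to 12828 in the other lymph node libraries, and LN4K1 replicate 3 had 12015 against 13272 to 13695. The labelled cells were checked against 6 monocyte and sort genes in the table (Ptprc, Itgam, Ly6c1, Ly6c2, Ccr2 and Lyz2). Each was present in every library, and the lowest value was 67.5 CPM of Ly6c1. Most of their summed level was Lyz2, with group means of 34248 to 75541 CPM. Ly6c2 and Ly6c1, which encode the Ly6C antigen of the gate, fell in all 3 comparisons of TIMs with BM IMs of their strain, primary tumor, lymph node and LN4K1 lung in that order, with log2 fold changes of -1.30, -1.17 and -0.88 for Ly6c2 and -0.97, -1.09 and -0.86 for Ly6c1 (adjusted p at most 0.00562, edgeR).

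Cd72 was high in both LN2E1 sites and low elsewhere, with at most 117 counts. In primary tumor TIMs it had 72.4, 33.9, 25.9, 31.6 and 40.1 CPM, from 2218 to 6698 counts. In lymph node TIMs it had 27.0, 78.7, 29.4, 26.5 and 22.0 CPM, from 1855 to 5963 counts. One library of each site, primary tumor replicate 1 and lymph node replicate 2, lay well above the other 4. LN4K1 lung TIMs had 0.959, 0.429, 0.0135, 1.20 and 0.475 CPM, FVB BM IMs had 0.297, 0 and 0.288 CPM, and DBA2 BM IMs had 0.218, 0.408 and 0.978 CPM. All 10 LN2E1 libraries lay above all 11 others, and the 3 low groups overlapped.

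**Figure D1:**
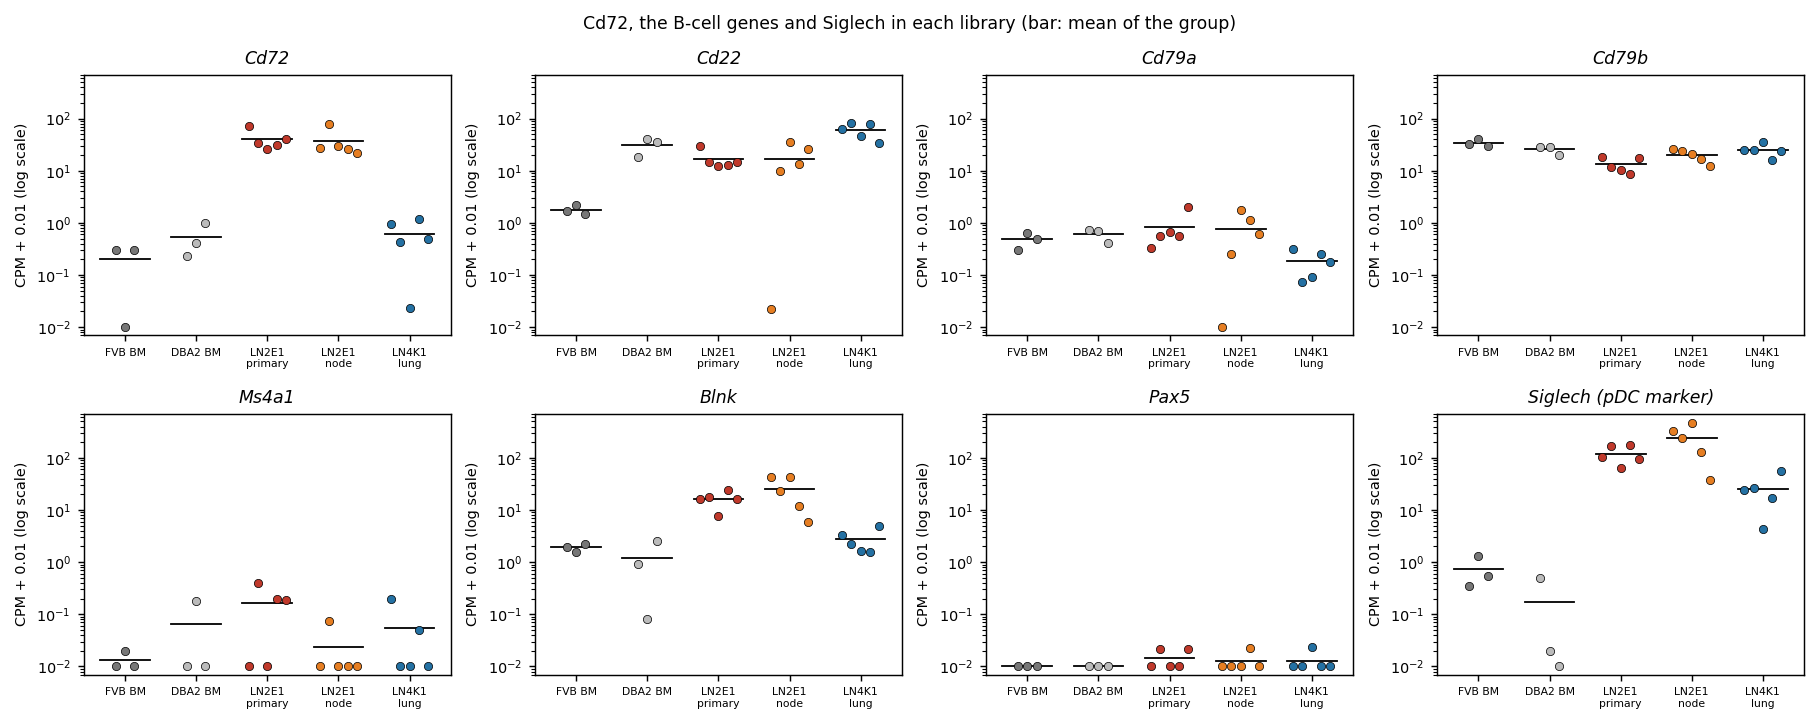
CPM of the 7 genes and of the plasmacytoid dendritic cell marker Siglech in each library (vertical, log scale, with 0.01 added) by group (horizontal); points are libraries and bars are group means. Cd72 separates the 10 LN2E1 libraries (22.0 to 78.7 CPM) from all others, Cd22 is lowest in FVB BM IMs, Cd79b is present in every group, and Pax5 lies at 0 or 1 count in every library.

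As means, Cd72 had 40.8 ± 18.4 CPM in primary tumor TIMs (SD, n = 5), 36.7 ± 23.6 in lymph node TIMs (n = 5), 0.615 ± 0.468 in LN4K1 lung TIMs (n = 5), 0.535 ± 0.396 in DBA2 BM IMs (n = 3) and 0.195 ± 0.169 in FVB BM IMs (n = 3). The first pair of groups in that order overlapped, and so did the last 3. The mean was 209 times that of FVB BM IMs in primary tumor TIMs and 188 times in lymph node TIMs, and it was 1.15 times that of DBA2 BM IMs in LN4K1 lung TIMs. As a description, the fitted log2 change was 7.68 (SE 0.79) in primary tumor TIMs, 0.15 (SE 1.05) in LN4K1 lung TIMs (0.46 without replicate 3), and 1.46 (SE 1.28) for DBA2 against FVB BM IMs.

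The lymph node libraries had no part in the contrast that picked Cd72, although the group each was compared with did. The p-values of Cd72 below are therefore not independent of that choice. Both LN2E1 sites also belong to the same tumor model. Against FVB BM IMs, Cd72 rose in lymph node TIMs by a log2 fold change of 7.55 (SE 1.0, adjusted p = 0.000274, edgeR's quasi-likelihood test), with 5 of 5 libraries above all FVB BM IM libraries. In that comparison 37.4% of all genes tested passed an adjusted p under 0.05. The change was 7.65 without lymph node replicate 1 (adjusted p = 0.00017). Between the 2 LN2E1 sites, the difference (lymph node minus primary tumor) was -0.14 (SE 0.38, adjusted p = 0.865, edgeR), so no difference was detected. It became 0.16 without primary tumor replicate 1 and 0.0018 without lymph node replicate 5, so its sign was not stable. Tesk1, which shares exon bases with Cd72 on the other strand, had 2.47 to 6.21 CPM in FVB BM IMs, 1.62 to 5.61 in primary tumor TIMs and 2.85 to 12.8 in lymph node TIMs. Its highest value, in lymph node replicate 1, came with 27.0 CPM of Cd72.

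Cd22 followed another order, with LN4K1 lung TIMs at the top and FVB BM IMs alone at the bottom. It had 1.71, 2.15 and 1.45 CPM in FVB BM IMs but 18.5, 41.2 and 34.9 CPM in DBA2 BM IMs. The 2 strains did not overlap, and Cd22 was higher in DBA2 BM IMs by a log2 fold change of 4.18 (SE 0.33, adjusted p = 0.000146, edgeR). Of the 6 genes besides Cd72, Cd22 alone passed between the strains (4 reached the test), where 21.1% of all genes tested passed. In LN4K1 lung TIMs Cd22 had 63.7, 83.5, 46.4, 78.5 and 34.3 CPM. These overlapped with DBA2 BM IMs, and the log2 difference of 0.90 (SE 0.35, adjusted p = 0.0932, edgeR) did not pass. It passed without LN4K1 replicate 3 (0.99, adjusted p = 0.0491), without LN4K1 replicate 5 (1.05, adjusted p = 0.0496) and with DESeq2 (0.91 unshrunken, adjusted p = 0.0288).

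In primary tumor TIMs Cd22 had 29.7, 14.5, 12.3, 12.8 and 14.5 CPM, all above FVB BM IMs, and rose by 3.23 on the log2 scale (SE 0.35, adjusted p = 4.13e-05). In lymph node TIMs it had 0.0121, 9.72, 36.3, 13.7 and 25.6 CPM. Lymph node replicate 1, with 1 count, lay below every FVB BM IM library, and the other 4 lay above all of them. With all 5 libraries the log2 difference of 3.28 (SE 1.37, adjusted p = 0.088) did not pass in edgeR, and it passed with DESeq2 (3.29 unshrunken, adjusted p = 0.0416) and in an edgeR fit of all 5 groups together (3.27, adjusted p = 0.00813). Without replicate 1 it was 3.60 (adjusted p = 0.000314, edgeR). The primary tumor change of Cd22 exceeded the LN4K1 change by 2.34 (SE 0.50, adjusted p = 0.00377), with mean levels of 1.77 and 16.8 CPM in the FVB pair and 31.5 and 61.3 CPM in the DBA2 pair. In a fit of all 5 groups together this difference was 2.28 and did not pass (adjusted p = 0.175).

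Blnk, the adaptor below Syk, was high in the LN2E1 sites like Cd72 but by less. FVB BM IMs had 1.98, 1.53 and 2.23 CPM. Primary tumor TIMs had 16.6, 18.1, 7.71, 24.2 and 16.2 CPM, and lymph node TIMs had 42.8, 23.4, 42.7, 12.0 and 5.92 CPM. All 10 lay above every other library, and the lymph node libraries spread the most. Blnk rose by 3.10 on the log2 scale in primary tumor TIMs (SE 0.36, adjusted p = 6.33e-05) and by 3.74 in lymph node TIMs (SE 0.68, adjusted p = 0.00197, edgeR), or by 3.47 without lymph node replicate 1 (adjusted p = 0.00193). LN4K1 lung TIMs had 3.31, 2.26, 1.63, 1.56 and 4.95 CPM and DBA2 BM IMs had 0.923, 0.0697 and 2.58 CPM. These groups overlapped, and the log2 difference of 1.14 (SE 0.88, adjusted p = 0.393) did not pass. The primary tumor change of Blnk was larger than the LN4K1 change by 1.97 (SE 0.93, adjusted p = 0.129), which did not pass either. Without DBA2 BM replicate 2, the library with 7 counts, that difference was 2.53 and passed (adjusted p = 0.0161).

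Of the 2 chains of the receptor's signalling pair, Cd79b had more reads than Cd79a in every library. Cd79b was present in every library: it had 32.9, 40.4 and 29.4 CPM in FVB BM IMs, 29.1, 28.4 and 20.2 in DBA2 BM IMs and 25.3, 25.2, 35.6, 16.3 and 23.6 in LN4K1 lung TIMs. Primary tumor TIMs had 18.5, 12.0, 10.4, 8.69 and 17.6 CPM, and lymph node TIMs had 26.3, 23.8, 20.8, 16.7 and 12.5 CPM. Every LN2E1 library lay below every FVB BM IM library. Cd79b fell by 1.36 on the log2 scale in primary tumor TIMs (SE 0.24, adjusted p = 0.000979) and by 0.76 in lymph node TIMs (SE 0.25, adjusted p = 0.0359, edgeR). The lymph node call did not hold without FVB BM replicate 1 or 2 or lymph node replicate 3, 4 or 5, and adjusted p over the 8 libraries left out in turn ran from 0.0126 to 0.157. In LN4K1 lung TIMs the log2 difference was -0.10 (SE 0.24, adjusted p = 0.797). The primary tumor change lay below the LN4K1 change by a log2 difference of -1.24 (SE 0.36, adjusted p = 0.0212). That difference did not pass without FVB BM replicate 2 (-1.11, adjusted p = 0.0648) or DBA2 BM replicate 3 (-1.08, adjusted p = 0.0641).

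Cd79a stayed low in all groups, with at most 174 counts in a library. Its mean was 0.472 CPM in FVB BM IMs, 0.606 in DBA2 BM IMs, 0.819 in primary tumor TIMs, 0.746 in lymph node TIMs and 0.174 in LN4K1 lung TIMs. Lymph node replicate 1 had 0 counts of it, which allows up to 3. Neighbouring groups in this order overlapped. LN4K1 lung TIMs (0.0627 to 0.312 CPM) and DBA2 BM IMs (0.404 to 0.715 CPM), which are not neighbours in it, did not overlap. Cd79a passed in no comparison in edgeR with all libraries. The log2 differences were 0.77 (SE 0.68, adjusted p = 0.352) in primary tumor TIMs, 0.67 (SE 1.43, adjusted p = 0.756) in lymph node TIMs and -1.85 (SE 0.77, adjusted p = 0.11) in LN4K1 lung TIMs. The primary tumor change exceeded the LN4K1 change by 2.64 (SE 1.01, adjusted p = 0.0643, edgeR). That difference passed with DESeq2 (2.70, adjusted p = 0.0219) and, in edgeR, without LN4K1 replicate 1 (2.97, adjusted p = 0.0449). Reads of Cd79b outnumbered those of Cd79a by 60.3 to 111 times in FVB BM IMs and by 8.74 to 59.0 times in primary tumor TIMs. Reads of Cd72 did not outnumber those of Cd79a in any FVB BM IM library, and numbered 19.8 to 231 times theirs in primary tumor TIMs and at least 16.7 times in every lymph node library.

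Ms4a1 and Pax5, which mark B cells themselves, were at or near 0. Ms4a1 had 0 counts in 13 of the 21 libraries and 1 to 35 counts in the others. It had 35, 17 and 15 counts in 3 primary tumor libraries, 17 in DBA2 BM replicate 2 and 16 in LN4K1 replicate 1. It passed the filter on low counts only for primary tumor TIMs against FVB BM IMs, through the group where it was higher, with a log2 difference of 5.00 (SE 2.06, adjusted p = 0.0577, edgeR), and for the difference between the models (5.39, SE 3.03, adjusted p = 0.203, edgeR). With DESeq2 the first of these passed (adjusted p = 0.0469). FVB BM IMs had 0 or 1 count, so the fitted size rests on the prior count and gives no bound. Without primary tumor replicate 1 or 3, which had 0 counts, adjusted p in edgeR was 0.0297 and 0.0261. Pax5 had 0 or 1 count in every library and never passed the filter.

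Of the 6 genes besides Cd72, 5 reached the test in primary tumor TIMs against FVB BM IMs, and in edgeR Cd22 and Blnk rose and Cd79b fell, where 61.9% of all genes tested passed. With DESeq2 Ms4a1 passed as well, where 64.0% of all genes passed, but it had reached the test only through the group where it was higher. At the study's limits for a differentially expressed gene (DEG), an adjusted p under 0.0001 with a log2 fold change beyond 1 in either direction, which 12.9% of all genes met, Cd22 and Blnk passed. In lymph node TIMs 4 genes reached the test and 2 passed in edgeR, Blnk upward and Cd79b downward, and neither was a DEG (5.71% of all genes were). With DESeq2 3 passed, Cd22 being the third, where 43.0% of all genes passed. In LN4K1 lung TIMs against DBA2 BM IMs, 0 of 4 tested genes passed in edgeR, 2 had an unadjusted p under 0.05 (Cd22 and Cd79a), and 1 passed with DESeq2 (Cd22), where 24.9% of all genes passed in edgeR and 32.9% with DESeq2. Between lymph node and primary tumor TIMs, 0 of 4 passed in edgeR and with DESeq2, and 1 had an unadjusted p under 0.05 (Cd79b), where 11.7% of all genes passed in edgeR and 17.9% with DESeq2. For the difference between the models, 2 of 5 passed in edgeR (Cd22 and Cd79b), where 26.5% of all genes passed, and 3 with DESeq2 (Cd79a as well), where 32.9% did. The primary tumor and lymph node comparisons share the FVB BM IM libraries, so they are not independent.

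**Figure D2:**
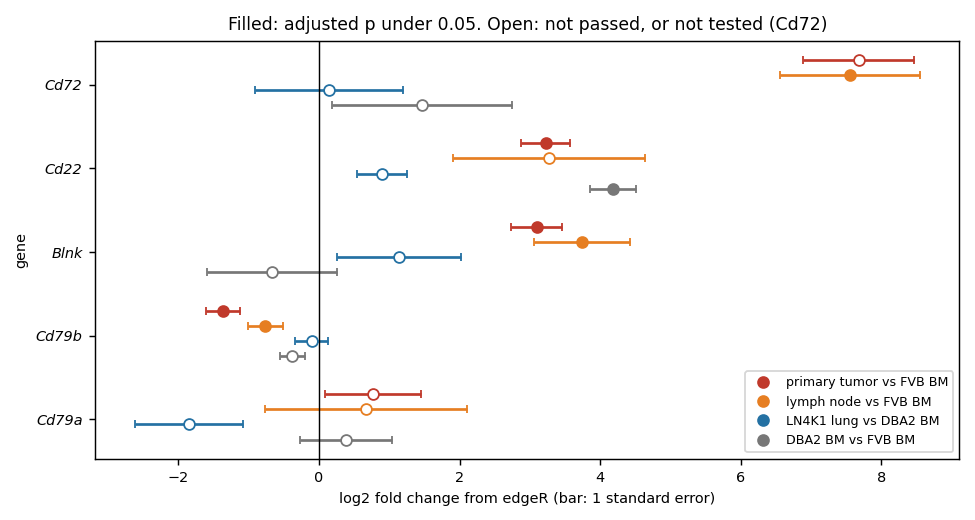
Log2 fold change from edgeR (horizontal; bars are 1 SE) of 5 genes in 4 comparisons (colors); filled points passed an adjusted p under 0.05, and open points did not pass or, for 3 of the Cd72 points, were not tested. Cd72 lies above 7 in both LN2E1 comparisons and near 0 in LN4K1, Blnk and Cd22 lie between 3 and 4 in LN2E1, and Cd79b lies below 0.

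Per kb of exon, the order of mean levels within a group also changed. In FVB BM IMs it was Cd79b at 23.9 CPM per kb, Cd22 at 0.351, Cd79a at 0.324, Blnk at 0.319 and Cd72 at 0.0570. In primary tumor TIMs Cd72 led with 11.9 CPM per kb, followed by Cd79b at 9.39, Cd22 at 3.33, Blnk at 2.76 and Cd79a at 0.562. LN4K1 lung TIMs had Cd79b at 17.6, Cd22 at 12.2, Blnk at 0.457, Cd72 at 0.180 and Cd79a at 0.119. Cd72 thus lay below Cd79b in FVB BM IMs and above it in primary tumor TIMs, and these orders were not tested.

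The ligand Sema4d was present in every library. It had 31.8, 36.1 and 88.2 CPM in FVB BM IMs and 153, 227 and 179 CPM in DBA2 BM IMs. Primary tumor TIMs had 379, 253, 212, 274 and 283 CPM and lymph node TIMs had 221, 308, 551, 330 and 399 CPM, with no overlap with FVB BM IMs. Sema4d rose by 2.40 (SE 0.37, adjusted p = 0.000451) and 2.80 (SE 0.42, adjusted p = 0.000614) on the log2 scale. In LN4K1 lung TIMs the log2 difference from DBA2 BM IMs was -0.42 (SE 0.32, adjusted p = 0.385). The plexin gene Plxnb2, which encodes another semaphorin receptor, rose by 2.63 (SE 0.29, adjusted p = 5.42e-05) and 2.69 (SE 0.36, adjusted p = 0.000313) in the LN2E1 sites and differed by 0.46 (adjusted p = 0.265) in LN4K1 lung TIMs. Ptpn6, whose product binds the tail of CD72, had group means of 1039 to 1229 CPM, and its log2 differences of 0.04, -0.09 and -0.09 did not pass (adjusted p = 0.724, 0.575 and 0.796).

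Of 24 genes of B-cell receptor signalling, 16 rose and 2 fell in primary tumor TIMs, with a median log2 fold change of 1.03 beside 0.08 over all genes tested. In lymph node TIMs 13 of 22 rose and 1 fell (median 0.69 beside -0.04), and in LN4K1 lung TIMs 4 of 23 rose and 0 fell (median 0.13 beside 0.03). Over all genes tested, 33.3% rose and 28.6% fell in primary tumor TIMs, 20.2% rose and 17.2% fell in lymph node TIMs, and 13.9% rose and 11.0% fell in LN4K1 lung TIMs. The list was chosen with results of these libraries known. Rasgrp3, which rose in primary tumor TIMs, was at or under 3 counts in every FVB BM IM library and reached that test only through TIMs. The DEGs of the list in primary tumor TIMs were Fyn (3.08) and Lyn (1.12), kinases that start the signal, the adaptor Pik3ap1 (3.86) and Blnk. In lymph node TIMs they were Fyn (3.82), Pik3ap1 (4.02), the adaptor Grb2 (1.23) and the ubiquitin ligase Cblb (2.24). Lyn also rose in LN4K1 lung TIMs (0.91, SE 0.10, adjusted p = 0.000189). Syk rose by 1.29 (adjusted p = 0.000126) and 1.31 (adjusted p = 0.00438) in the LN2E1 sites and differed by 0.15 (adjusted p = 0.55) in LN4K1 lung TIMs, and Btk passed in none of the 3 (adjusted p = 0.311, 0.73 and 0.81). Plcg2, the phospholipase that Blnk assembles, rose by 0.65 (adjusted p = 0.0119) and 0.67 (adjusted p = 0.0462), and differed by -0.35 (adjusted p = 0.529) in LN4K1 lung TIMs.

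**Figure D3:**
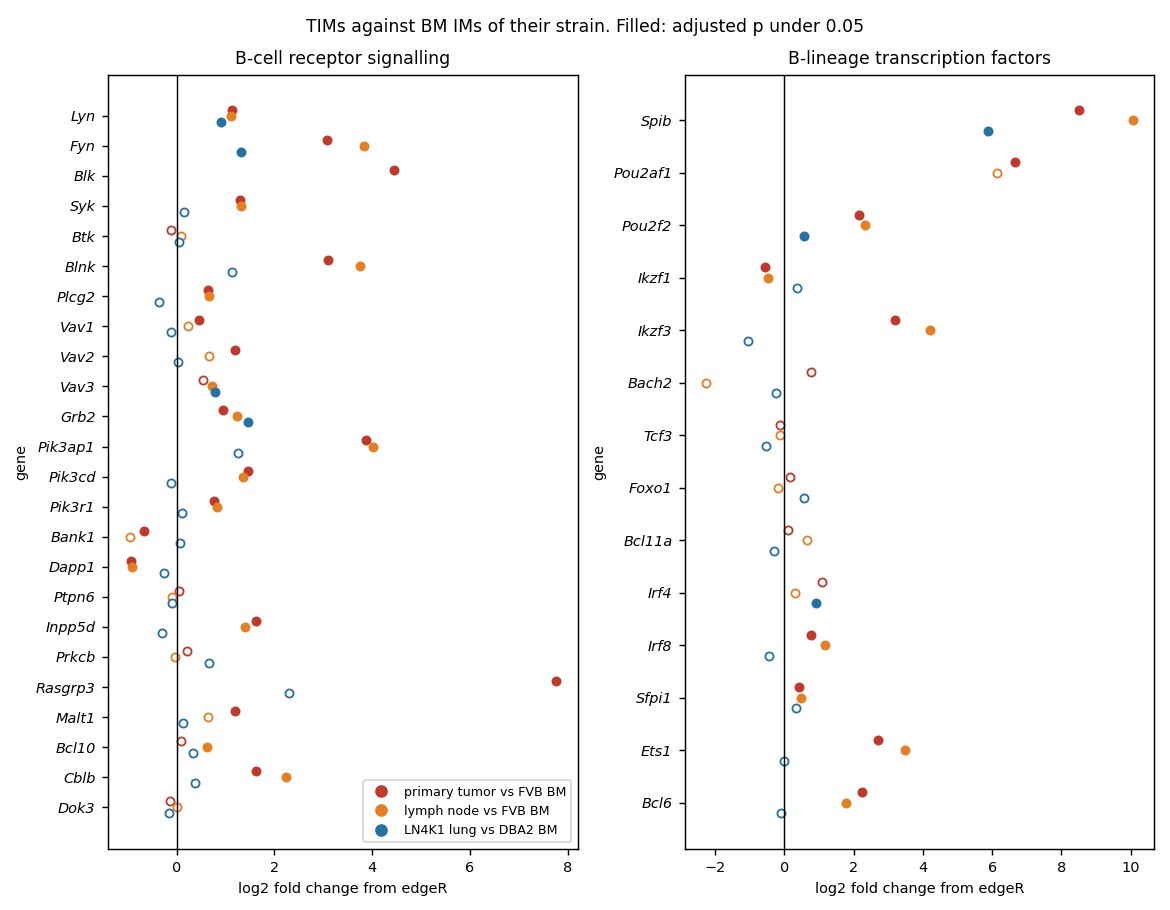
Log2 fold change from edgeR (horizontal) of the tested genes of B-cell receptor signalling (left) and of B-lineage transcription factors (right) in TIMs against BM IMs of their strain (colors); filled points passed an adjusted p under 0.05. Of the signalling genes, 16 of 24 rose in primary tumor TIMs, 13 of 22 in lymph node TIMs and 4 of 23 in LN4K1 lung TIMs.

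Among 13 genes of the receptor complex and its coreceptors, with Cd72 counted in the lymph node comparison only, 6 of 11 tested rose and 2 fell in primary tumor TIMs, 6 of 11 rose and 2 fell in lymph node TIMs, and 4 of 9 rose and 2 fell in LN4K1 lung TIMs. Cd38, an ectoenzyme of many leukocytes, was a DEG in both LN2E1 sites (5.84, SE 0.35, and 6.04, SE 0.31) and rose in LN4K1 lung TIMs (4.58, adjusted p = 0.000255). The inhibitory Fc receptor Fcgr2b rose in all 3 (1.21, 1.03 and 1.81), and the inhibitory lectin Siglecg fell in all 3 (-1.78, -1.44 and -2.53). Of 16 B-lineage transcription factors, 8 of 14 tested rose and 1 fell in primary tumor TIMs, 7 of 14 rose and 1 fell in lymph node TIMs, and 3 of 13 rose and 0 fell in LN4K1 lung TIMs. The DEGs of this list were Spib (8.50), Ets1 (2.69) and Bcl6 (2.25) in primary tumor TIMs and Irf8 (1.17) in lymph node TIMs. Spib and Pou2af1 were at or under 3 counts in every FVB BM IM library. They reached the tests against FVB BM IMs only through TIMs. PU.1 rose by 0.42 (adjusted p = 0.00249) and 0.49 (adjusted p = 0.0187) in the LN2E1 sites and differed by 0.33 (adjusted p = 0.107) in LN4K1 lung TIMs, while Ikzf1 fell by 0.56 (adjusted p = 0.00537) and by 0.49 (adjusted p = 0.0449) and differed by 0.36 (adjusted p = 0.364).

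Markers of other cells in the sort also differed between the groups. In bulk samples, fewer cells of a type and less RNA per cell cannot be told apart. Of 22 B-cell markers 19 were in the table. Without members, the other 14 summed to 9.84 to 12.8 CPM in FVB BM IMs, 8.67 to 13.8 in DBA2 BM IMs, 64.9 to 120.4 in primary tumor TIMs, 40.0 to 267 in lymph node TIMs and 17.4 to 63.3 in LN4K1 lung TIMs. Ebf1 and Cr2 were at or under 3 counts in every library of each group except primary tumor TIMs. Ly6d, which early lymphoid cells also express, rose in all 3 comparisons (6.35, 7.31 and 5.33), and Fcrla rose in the LN2E1 sites (6.48 and 7.61). Spib, also on the list of B-lineage factors, rose in all 3 comparisons (8.50, 10.1 and 5.88). In primary tumor TIMs Pou2af1 (6.67), Blk (4.45), H2-Ob (3.61) and Tnfrsf13c (3.11) rose too, while Bank1 (-0.67) and Cd79b fell. Across the whole list, 10 of 16 tested genes rose and 2 fell in primary tumor TIMs. In lymph node TIMs 4 of 11 rose and 1 fell, and in LN4K1 lung TIMs 2 of 11 rose. Over all genes tested, 33.3%, 20.2% and 13.9% rose in those comparisons, in that order. Spib, Pou2af1 and Faim3 were at or under 3 counts in every FVB BM IM library. They reached the tests against FVB BM IMs only through TIMs, and their fitted sizes there rest on the prior count. The part of B cells in the Cd72, Cd22 and Blnk values was not tested.

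Of 8 markers of plasmacytoid dendritic cells, 7 rose in each of the 3 comparisons, and they summed to 38.3 to 44.9 CPM in FVB BM IMs, 49.2 to 53.2 in DBA2 BM IMs, 251 to 534 in primary tumor TIMs, 186 to 1411 in lymph node TIMs and 119 to 176 in LN4K1 lung TIMs. Their lectin gene Siglech had 104, 167, 65.0, 175 and 93.3 CPM in primary tumor TIMs, 328, 244, 476, 131 and 37.0 in lymph node TIMs, and 24.3, 26.9, 4.35, 17.0 and 54.9 in LN4K1 lung TIMs, against at most 1.32 in BM IMs. In edgeR, Siglech rose by 7.34 (adjusted p = 9.85e-06), 8.38 (adjusted p = 0.00016) and 7.23 (adjusted p = 0.00386). Of the list, Pacsin1 was at or under 3 counts in every BM IM library, and Klk1 and Cox6a2 in every DBA2 BM IM library. They reached those comparisons only through TIMs. Over all genes tested, 33.3%, 20.2% and 13.9% rose in the 3 comparisons. Klk1, another marker of the list, had a mean of 56.3 CPM in primary tumor TIMs, 139.9 in lymph node TIMs and 0.527 in LN4K1 lung TIMs. Siglech was thus well above BM IMs in LN4K1 lung TIMs. Klk1 and Cd72 were both under 1 CPM on average there, but their changes from DBA2 BM IMs differed. Klk1 rose from 0 counts in every DBA2 BM IM library to 12 to 78 counts (log2 change 8.58, adjusted p = 0.00505, edgeR). With 0 counts in DBA2 BM IMs, that size rests on the prior count. The fitted log2 change of Cd72 was 0.15 (SE 1.05), a description with no test.

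The ratio of Blnk to Siglech reads lay between 0.0898 and 0.173 over the 10 LN2E1 libraries, a range of 1.93-fold, and between 0.0840 and 0.374 in LN4K1 lung TIMs (0.0840 to 0.136 without replicate 3). Among the plasmacytoid markers, the ratio of Ccr9 to Siglech was 0.418 to 0.570 in the LN2E1 libraries and 0.162 to 0.512 in LN4K1 lung TIMs (from 0.227 without replicate 3). The ratio of Klk1 to Siglech was 0.406 to 0.603 and 0.0144 to 0.0374 (to 0.0351 without replicate 3). The ratio of Cd72 to Siglech reads ranged over 11.3-fold in the LN2E1 libraries (0.0618 to 0.698), and it was 0.00312 to 0.0705 in LN4K1 lung TIMs (from 0.00866 without replicate 3). The ratio of Cd22 to Siglech reads ranged from 3.69e-05 to 0.692 in the LN2E1 libraries. Its low end was 1 read in lymph node replicate 1, and without that library the ratio ranged over 17.4-fold (from 0.0398). Both genes of each ratio come from the same libraries, and the part of plasmacytoid dendritic cells in the Blnk, Cd72 and Cd22 values was not tested.

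**Figure D4:**
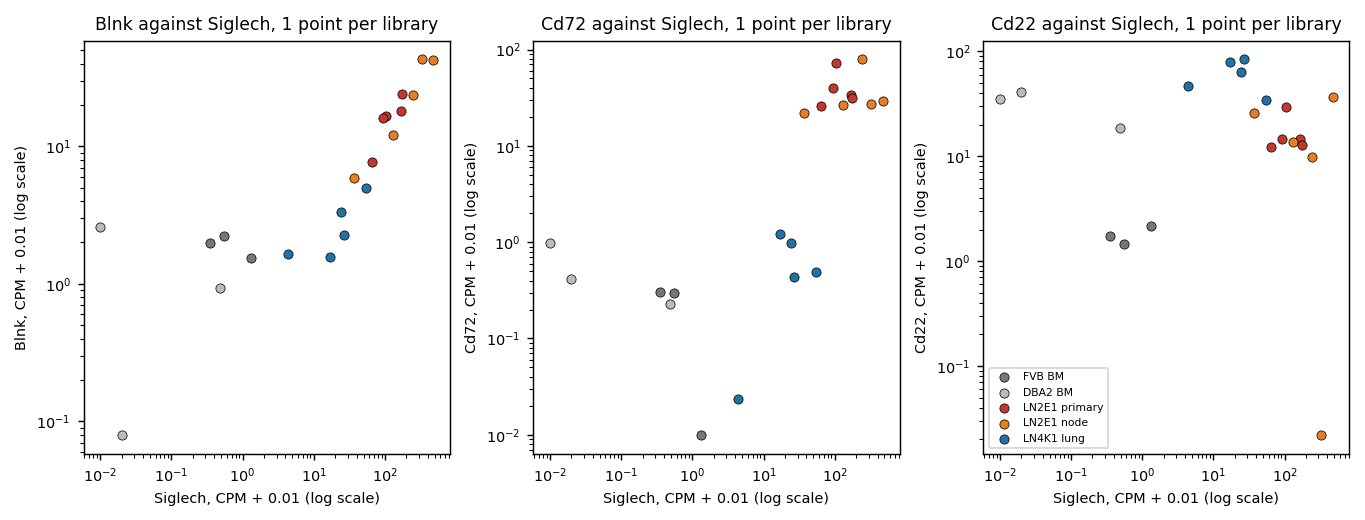
CPM of Blnk, Cd72 and Cd22 (vertical) against CPM of Siglech (horizontal) in each library, on log scales with 0.01 added, with colors for the 5 groups. Over the 10 LN2E1 libraries Siglech ranges from 37.0 to 476 CPM, Blnk from 5.92 to 42.8 CPM and Cd72 from 22.0 to 78.7 CPM, and Cd22 spans 0.0121 to 36.3 CPM (9.72 to 36.3 without lymph node replicate 1).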

How the data were processed

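RNA from 21 libraries of sorted IMs was analysed. Labels gave the group of each library, and none was left out. The deposited values are raw counts of reads per gene symbol. The authors amplified cDNA with a SMART ultra-low input kit, made Nextera XT libraries without strand, trimmed reads with BBDuk, aligned them with BBMap to mm10 and counted them with featureCounts 1.5.2 (Subread); the submitters' processing notes also name SAMtools 1.8. The settings of featureCounts are not given in the sources used here. Multi-mapping reads and amplification without molecular identifiers can affect low genes.

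From these counts, CPM was computed with TMM factors over the 21 libraries (log2 CPM with a prior count of 2), and CPM per kb with merged exon lengths. Every comparison was a separate fit of its libraries in R 4.3.3 with edgeR 4.0.16 (filterByExpr at its defaults, 10 for the count and 15 for the total, robust quasi-likelihood test) and Benjamini-Hochberg adjustment over all genes tested. Genes that rose or fell passed an adjusted p under 0.05. The standard error was the log2 fold change divided by the root of F, which is approximate. On simulated counts for the lymph node comparison (13149 genes), 99.0% of genes changed by 2 on the log2 scale passed. For the difference between the models (14670 genes), 69.4% changed by 2 and 99.0% changed by 4 passed. The simulated counts had the same fixed dispersion for every gene. These shares therefore do not apply to genes with a wider spread between libraries, such as Cd72, Cd22 and Blnk in lymph node TIMs.

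Named genes were the 7 members. Of each list they were the 4 genes of highest mean log2 CPM and the DEGs where there were at most 5, and, by role, Sema4d, Ptpn6, Lyn, Syk, Btk and Fcgr2b. The 5 genes most like Cd72 and the 5 most like Cd79a were also named. Other genes named were chosen after their values were seen (Tesk1, Ebf1, Cr2, Gm29439, 5730488B01Rik and Gm12462, and genes named only as list members). Some genes of the lists are not reported here and were left out of the list counts and sums. The members and all lists were chosen with earlier results of these data known. Lists covered the receptor complex, its signalling, B-lineage factors, CD72 ligand genes, and markers of B cells, their precursors, plasma cells, plasmacytoid and other dendritic cells, T cells, NK cells, macrophages, alveolar macrophages, neutrophils, eosinophils, squamous epithelium and monocytes. Older symbols were matched (Sfpi1 for Spi1, Lilrb3 for Pirb, Faim3 for Fcmr, Igj for Jchain, Emr1 for Adgre1), and Ighm, Ighd, Igkc and Ly6g were not analysed here. Promoters came from RefSeq (5 of 7 members matched: Cd79b and Ms4a1 did not). Alternatives were DESeq2 1.42.0, its size factors in edgeR, other filters, a fit of all 5 groups, the replicate number as a block, and leaving out each library. The ratios to Siglech without 1 library were added after seeing the data. Figures and tables used Python 3.11.15, pandas 2.3.3 and matplotlib 3.10.9.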

Additional observations from a re-analysis of the deposited data

Results flagged for a closer look

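In groups of 5 libraries, a single library whose gap to its nearest neighbour took most of the group's range was marked (Dixon's test, 95% limit), over 18 groups with values above the counting limit. Chance marks about 5% of groups. Cd72 was marked in lymph node TIMs, where replicate 2 had 78.7 CPM. Cd22 was marked in primary tumor TIMs for replicate 1 with 29.7 CPM, the library that also had the highest Cd72 of its group. Cd79a was marked in primary tumor TIMs for replicate 5 with 2.02 CPM. Ms4a1 was marked in lymph node TIMs for replicate 2, with 0.0660 CPM from 5 counts, and in LN4K1 lung TIMs for replicate 1, with 0.185 CPM from 16 counts, and these rest on few reads. Between the models, the change of Cd22 from BM IMs to TIMs was larger in LN2E1 primary tumors by 2.34 on the log2 scale (adjusted p = 0.00377, edgeR), and that of Cd79b was lower there (difference -1.24, adjusted p = 0.0212, edgeR). Strain, cell line, route and tissue cannot be told apart in either difference.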

How the results depend on the processing

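Of the 6 genes besides Cd72, 4 reached the main test in lymph node TIMs against FVB BM IMs. With the replicate block 1 of them (Blnk) passed, and leaving out 1 library gave 1 to 3. Replicate numbers did not pair the libraries (correlation of deviations between same-numbered libraries -0.100 to 0.0569). In LN4K1 lung TIMs 1 gene (Cd22) passed with DESeq2, shrunken or unshrunken, where 32.9% of all genes passed unshrunken, and 0 to 1 did when 1 library was left out. For the difference between the models 1 gene (Cd79b) passed in the fit of all 5 groups, and 1 to 3 when 1 library was left out. Shares over all genes are not given for the alternatives other than DESeq2, so those counts cannot be set against them. Cd72 passed in lymph node against FVB BM IMs under every alternative run (with the replicate block 7.80, adjusted p = 0.0161, edgeR), at 6.97 to 7.98 with 1 library left out. That comparison shares the FVB BM IM libraries with the contrast that picked Cd72, so these passes are not independent of the choice. Between lymph node and primary tumor TIMs, Cd72 ranged from -0.62 to 0.16 on the log2 scale with 1 library left out. No result that had passed changed sign. With the replicate block, 3 differences that had not passed did, to -1.47 for Cd79a in lymph node TIMs, 0.088 for Cd79b in LN4K1 lung TIMs and -0.30 for Cd22 between the LN2E1 sites. With 1 library left out, signs also turned for Cd22 (-0.45 to 0.36) and Cd79a (-0.74 to 0.53) between the LN2E1 sites, Cd79b in LN4K1 lung TIMs (-0.25 to 0.018) and Ms4a1 between the models (-0.069 to 7.35). The causes were not tested. Depth limits Ms4a1, Pax5 and Cd79a.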

Other observations

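By Pearson correlation of log2 CPM over the 21 libraries, among 11427 genes with a mean of at least 1 CPM, the genes most like Cd72 were Spty2d1 (r = 0.958), Pecam1 (0.955), Zbtb21 (0.948), Klhl18 (0.945) and Fam46c (0.944). The points share library and depth, and fall into a high and a low cluster. By rank correlation 0 of these 5 stayed among the first 5. Pecam1, an adhesion molecule of endothelium and leukocytes, had log2 differences of 3.34 in primary tumor TIMs, 3.98 in lymph node TIMs and -0.20 in LN4K1 lung TIMs, which are a description, since it was picked for its likeness to Cd72 in these libraries. The genes most like Cd79a were Ppip5k1 (0.864), Ap3b1 (0.834), Dock1 (0.820), Zfp280b (0.799) and Lmtk2 (0.799), of which 1 stayed by rank.

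The plasma cell list summed to 9.57 to 14.3 CPM in BM IMs and 195 to 609 in LN2E1 TIMs, and 4 of 5 tested genes rose in each LN2E1 site, with Prdm1 up by 4.77 and 4.34 and Sdc1 by 7.14 and 5.89. In LN4K1 lung TIMs it summed to 48.5 to 132 CPM and 2 of 6 rose. Genes of B-cell precursors summed to 0.468 to 1.5 CPM in BM IMs and 13.0 to 76.2 in LN2E1 TIMs, with Il7r up by 5.00 and 5.53, while Rag2 was at or under 3 counts in every library. T-cell genes summed to 1.53 to 5.46 CPM in BM IMs, 14.4 to 104 in LN2E1 TIMs and 16.0 to 45.9 in LN4K1 lung TIMs. In primary tumor TIMs 6 of 9 tested rose, Lat fell (-1.04), and Cd3d and Cd3g did not pass. Of those that rose, Cd8a, Cd8b1 and Cd3e were at or under 3 counts in every FVB BM IM library. They reached the test only through TIMs. Over all genes tested, 33.3% rose in primary tumor TIMs, 20.2% in lymph node TIMs and 13.9% in LN4K1 lung TIMs.

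Eosinophil granule genes stood the other way. The list summed to 434 to 1148 CPM in BM IMs, to at most 3.42 in LN2E1 TIMs and to 4.43 to 68.9 in LN4K1 lung TIMs. NK-cell genes summed to 24.8 to 28.8 CPM in FVB BM IMs and 2.32 to 6.86 in LN2E1 TIMs. They summed to 2.70 to 6.29 in DBA2 BM IMs and 11.9 to 28.6 in LN4K1 lung TIMs, where 4 of 6 tested rose. Those 4 (Ncr1, Klrb1c, Gzma and Prf1) were at or under 3 counts in every DBA2 BM IM library. They reached the test only through LN4K1 lung TIMs, where 13.9% of all genes tested rose. Squamous epithelium genes summed to at most 8.31 CPM in any library. Summed levels were 1471 to 2819 CPM in BM IMs and 3735 to 5656 in LN2E1 TIMs for macrophage genes, and 178 to 217 and 311 to 459 for dendritic cell genes. They were 4.42 to 13.1 and 5.83 to 46.6 for alveolar macrophage genes, and 1008 to 2510 and 648 to 2088 for mature neutrophil genes.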
